A study of Mus musculus with 4 samples.

Results

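Fibroblast identity genes are transcripts by which connective tissue fibroblasts are told from other cells. The 10 examined here are Pdgfra, Dpt, Gsn, Dcn, Lum, Pi16, Dpp4, Cd34, Thy1 and Mfap5. They were chosen by name, as genes of fibroblasts in general (the first 5) and of the adventitial type (the last 5). The choice of these genes, and of the 9 fibroblast lists below, was made with earlier results of these data known. The shares over all genes printed beside them are therefore a description and not a test. Each gene was matched by its Ensembl identifier to GENCODE M21. All 10 were found among the 54393 gene identifiers, and all 10 were among the 18917 genes with enough counts to be tested, in all 4 libraries.

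RNA was sequenced from mouse mammary cells of ΔNp63 conditional knockout (cKO) and wild-type (WT) glands, with 1 library of each genotype at 10 days and 1 at 5 weeks after tamoxifen, so n = 2 per genotype and n = 2 per time point. ΔNp63 is the short form of the transcription factor p63 found in basal epithelium. The protocol text, the same for all 4 libraries, names iK14-Cre; DNp63 f/f mice and tamoxifen (1.5 mg/ml), given at 4 weeks of age. The alleles of the WT animals are not stated separately. In this line an inducible Cre is driven by the keratin 14 promoter, which is active in basal epithelial cells. The labels call the material mammary epithelial cells, but the sort removed only cells with CD45, CD31 or Ter119 (leukocytes, endothelium and red cells), and 100000 cells entered each library. Nothing says whether the libraries came from separate or pooled animals, so p-values measure only the spread between these libraries, including any change of the genotype difference with time. Ages of 5 and 35 weeks stand in the growth protocol; they cannot both be reached from the stated schedule and were not used.

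Fibroblasts of the mammary stroma lie around the ducts and in the fat pad. They make the collagen and proteoglycan matrix that epithelium rests against, and they respond to platelet-derived growth factor through the receptor Pdgfra. Across mouse tissues a population that carries Pi16, Dpp4 and Cd34 sits in the adventitia of vessels and is described as a reservoir from which other fibroblasts can arise. Several of these genes are not exclusive to fibroblasts: Cd34 also marks endothelium and blood progenitors, Thy1 marks T cells and neurons, Dpp4 is found on T cells and some epithelia, and Gsn is expressed widely.

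Total counts ran from 31714181 to 79122250 per library. Trp63, the gene that encodes ΔNp63, stood at 12.8 CPM (counts relative to the TMM-scaled library size) in cKO and 46.8 CPM in WT at 10 days. At 5 weeks it stood at 25.5 CPM in cKO and 160.5 CPM in WT. This is the direction the genotype labels give (log2 fold change -2.26, adjusted p = 0.107 in edgeR). Basal epithelial markers, given below, also had lower sums in cKO at both times, and gene-level counts do not separate the ΔN form. The part of fewer basal cells in the Trp63 values was not tested. Against the label, fibroblast transcripts were a regular part of every library: the 10 genes together took 2.15% of counts in cKO and 0.90% in WT at 10 days, and 1.97% in cKO and 1.47% in WT at 5 weeks. Without Gsn, which many cell types express, the other genes took 0.79% in cKO and 0.48% in WT at 10 days, and 0.93% in cKO and 0.54% in WT at 5 weeks. Luminal epithelial markers (9 genes with Krt8 and Krt18) summed to between 7677 and 9801 CPM per library, so both kinds of cell were present. In bulk libraries such as these, fewer cells of a type and less RNA per cell cannot be told apart.

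The start regions of the 4 genes with the smallest p-values for genotype, Dpp4, Pi16, Cd34 and Dpt, are shown because these genes had similar cKO to WT ratios at both time points. The windows come from RefSeq (GRCm38.p6), run from 250 bases before to 50 bases after the annotated start, and read 5′ to 3′ on the gene's strand. RefSeq windows were found for 6 of the 10 genes, not for Dcn, Lum, Thy1 or Mfap5. Capitals mark matches to TATAAA, the motif of the TATA box. Whether a match acts as a TATA box was not tested.
Dpp4, chr2:62412182-62412481, minus strand: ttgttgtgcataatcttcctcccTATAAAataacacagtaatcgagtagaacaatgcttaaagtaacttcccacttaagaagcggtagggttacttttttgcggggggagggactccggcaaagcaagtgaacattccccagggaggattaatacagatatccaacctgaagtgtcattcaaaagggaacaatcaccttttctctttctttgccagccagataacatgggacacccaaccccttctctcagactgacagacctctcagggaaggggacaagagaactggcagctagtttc
Pi16, chr17:29318632-29318931, plus strand: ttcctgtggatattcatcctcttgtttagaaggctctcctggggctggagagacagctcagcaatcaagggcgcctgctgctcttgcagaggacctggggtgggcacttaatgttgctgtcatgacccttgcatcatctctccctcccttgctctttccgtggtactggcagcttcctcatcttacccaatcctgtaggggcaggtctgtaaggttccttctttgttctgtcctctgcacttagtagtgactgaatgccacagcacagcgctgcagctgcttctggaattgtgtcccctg
Cd34, chr1:194938571-194938870, plus strand: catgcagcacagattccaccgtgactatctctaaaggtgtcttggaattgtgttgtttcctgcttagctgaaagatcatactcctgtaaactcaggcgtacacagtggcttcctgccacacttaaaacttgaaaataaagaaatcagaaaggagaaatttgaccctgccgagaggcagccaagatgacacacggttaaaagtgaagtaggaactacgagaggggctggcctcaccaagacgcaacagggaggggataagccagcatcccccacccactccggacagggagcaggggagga
Dpt, chr1:164796413-164796712, plus strand: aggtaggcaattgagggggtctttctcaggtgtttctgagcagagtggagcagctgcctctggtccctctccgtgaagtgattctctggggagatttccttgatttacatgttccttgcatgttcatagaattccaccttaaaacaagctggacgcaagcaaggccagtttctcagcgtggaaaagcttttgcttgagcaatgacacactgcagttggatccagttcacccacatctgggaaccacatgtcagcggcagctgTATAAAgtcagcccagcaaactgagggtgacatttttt
TATAAA was searched on both strands and occurred once in the Dpp4 window and once in the Dpt window, both on the gene's own strand. It was in neither the Pi16 nor the Cd34 window, and 13.6% of all 32851 windows held it. The Dpt match begins 13 bases into the annotated transcript and the Dpp4 match at position -227, before the start. The AP-1 motif TGANTCA and the p53-family half-site (named here, since it needs ambiguity letters) were searched in the same way and had no match in any of the 8 windows of the 6 genes. They occur in 7.81% and 8.36% of all windows. The RefSeq start of Pi16 lies 1202 bases downstream of the start of the GENCODE gene, so the Pi16 window describes 1 of its starts.

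The genes differ widely in level. Per kilobase of merged exons, Gsn, which encodes the actin-severing protein gelsolin, was the most abundant, with a mean of 2976 CPM per kilobase over the 4 libraries. The collagen-binding proteoglycan decorin (Dcn) followed at 685 CPM per kilobase, then dermatopontin (Dpt), a small matrix protein, at 385 and the keratan sulfate proteoglycan lumican (Lum) at 307. Pi16, Thy1, Cd34, Mfap5 and Pdgfra lay close together at 50.7, 50.7, 46.0, 43.4 and 36.4 CPM per kilobase, and Dpp4 was lowest at 13.0. The ranges over libraries overlapped between Dcn and Dpt, between Dpt and Lum, and among the 5 genes from Pi16 to Pdgfra. Those of Gsn and Dcn did not overlap, nor did those of Lum and Pi16. Dpp4 was below Pdgfra in every library.

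**Figure D1:**
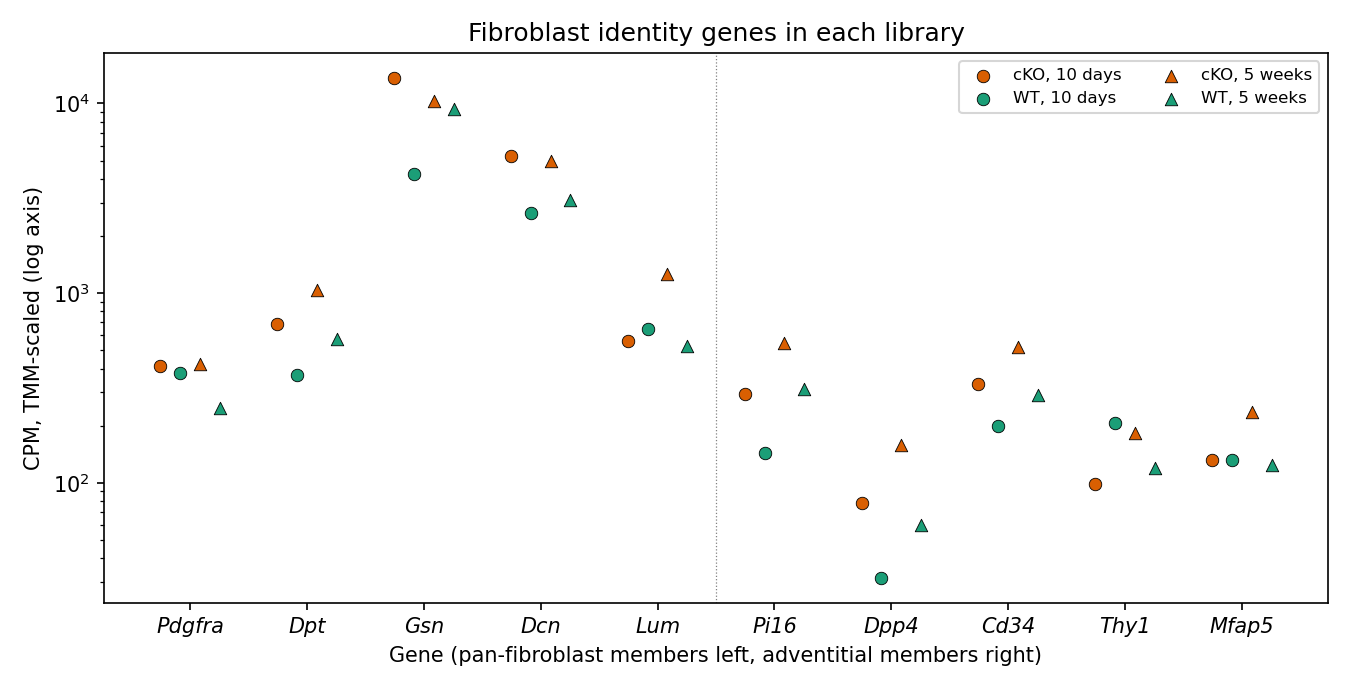
Level of each fibroblast identity gene in each library, in TMM-scaled CPM on a log axis; colour gives the genotype and shape the time point, and each point is 1 library. Levels are not divided by gene length here; Dpp4 spans 31.6 to 157.7 CPM, the widest relative range of the 10 genes, and Pdgfra 248.9 to 420.9 CPM, the narrowest.

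The genotype comparison asked whether these stromal transcripts differ when ΔNp63 is deleted from keratin 14 cells, with time point held constant. Most of the 10 genes had more RNA in cKO than in WT, but none passed the threshold: 0 of 10 had an adjusted p under 0.05 in edgeR's quasi-likelihood test, where 0.0581% of all genes did. The 4 surface or matrix genes Dpp4, Pi16, Cd34 and Dpt reached an unadjusted p under 0.05, each higher in cKO, against 5.80% of all genes in that direction. The median log2 fold change of the 10 was 0.81, against -0.0056 over all genes tested. Both cKO libraries lay above both WT libraries for 7 of the 10 (all but Lum, Pi16 and Thy1), against 22.6% of all genes. Mfap5 is among the 7 only by 131.7 CPM in cKO against 131.2 CPM in WT at 10 days, an order that scaling by library totals reverses. A log2 fold change above 0 was found for 9 of the 10, against 49.4% of all genes. DESeq2 called Dpt, Pi16 and Dpp4, where it called 2.87% of the 17816 genes to which it gave an adjusted p. Limma-voom called none of the 10 and 0.153% of all genes. EdgeR without a filter on low counts called Pi16 and Dpp4, where it called 3.71% of the 33332 genes it then tested.

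Among the surface proteins, Dpp4, a membrane-bound dipeptidase (ENSMUSG00000035000.8, GRCm38 chromosome 2, 62330073 to 62412231), stood at 78.4 CPM in cKO and 31.6 CPM in WT at 10 days, and at 157.7 CPM in cKO and 60.2 CPM in WT at 5 weeks. The groups did not overlap, and each cKO library was more than double the WT library of its time. The ratios were 2.48-fold at 10 days and 2.62-fold at 5 weeks. The fitted log2 fold change was 1.35 (SE 0.191, unadjusted p = 0.000553 and adjusted p = 0.139 in edgeR). Fits that left out a library and the time term gave 0.75 when cKO at 5 weeks was left out and 1.90 when WT at 5 weeks was. All genotype fits below that left out a library also lacked the time term, so they mix time with genotype.

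Cd34, a sialomucin of the cell surface (ENSMUSG00000016494.9, chromosome 1, 194938819 to 194961279), had 330.8 CPM in cKO and 199.9 CPM in WT at 10 days, and 520.6 CPM in cKO and 288.7 CPM in WT at 5 weeks. Both cKO libraries were the higher ones. Its log2 fold change was 0.79 (SE 0.237, unadjusted p = 0.0176, adjusted p = 0.341 in edgeR). The estimate ranged from 0.42 to 1.09 over the fits that lacked a library and the time term. Within a time point the log2 ratios were 0.73 at 10 days and 0.85 at 5 weeks. Endothelial markers, 9 genes with Pecam1 and Tek among them, summed to 232.4 CPM in cKO and 181.8 CPM in WT at 10 days, and to 351.9 CPM in cKO and 216.3 CPM in WT at 5 weeks. All 9 had a log2 fold change above 0 and none was at 0 counts in any library; their part in the Cd34 difference was not tested.

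Pdgfra, the receptor that defines the lineage in most tissues (ENSMUSG00000029231.15, chromosome 5, 75152292 to 75198215), varied least. It had 411.6 CPM in cKO and 378.7 CPM in WT at 10 days, and 420.9 CPM in cKO and 248.9 CPM in WT at 5 weeks. The 2 cKO libraries were nearly level with each other, and the lower WT value was the one at 5 weeks. Genotype gave a log2 fold change of 0.44 (SE 0.276, adjusted p = 0.602 in edgeR); it was 0.14 when WT at 5 weeks was left out and 0.74 when WT at 10 days was.

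Thy1, a surface glycoprotein anchored by a lipid (ENSMUSG00000032011.5, chromosome 9, 44043384 to 44048579), did not share the pattern. It had 98.2 CPM in cKO and 206.0 CPM in WT at 10 days, but 183.2 CPM in cKO and 119.7 CPM in WT at 5 weeks. The cKO library was the lower at 10 days and the higher at 5 weeks, and the groups overlapped. The log2 fold change of -0.23 (SE 0.479, adjusted p = 0.896 in edgeR) averages over ratios of -1.07 and 0.61. Its sign was positive when either 10-day library was left out (0.23 without WT and 0.15 without cKO). Leukocyte markers, 12 genes with Cd3e among them, summed to only 104.6 and 129.3 CPM in cKO and 67.3 and 49.9 CPM in WT at 10 days and 5 weeks, and were higher in cKO at both times. Their part in the Thy1 and Dpp4 values was not tested.

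Pi16, a peptidase inhibitor family protein (ENSMUSG00000024011.17, chromosome 17, 29317680 to 29330593), stood at 294.0 CPM in cKO and 143.2 CPM in WT at 10 days, and at 543.4 CPM in cKO and 310.5 CPM in WT at 5 weeks. The cKO library was higher at each time point, yet cKO at 10 days lay just below WT at 5 weeks. Pi16 had a log2 fold change of 0.92 for genotype (SE 0.239, unadjusted p = 0.00966, adjusted p = 0.296 in edgeR). Without the time term, leaving out cKO at 5 weeks gave 0.36, and leaving out WT at 5 weeks gave 1.55. Within a time point the log2 ratios were 1.04 at 10 days and 0.81 at 5 weeks.

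The matrix genes fell into separate patterns. Dpt (ENSMUSG00000026574.5, chromosome 1, 164796644 to 164824266) had 685.6 CPM in cKO and 368.8 CPM in WT at 10 days, and 1032 CPM in cKO and 571.1 CPM in WT at 5 weeks. Its ratios were nearly equal at both times (1.86-fold and 1.81-fold), with a log2 fold change of 0.87 (SE 0.273, unadjusted p = 0.0205, adjusted p = 0.353 in edgeR). Without cKO at 5 weeks and the time term the estimate was 0.53.

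Dcn (ENSMUSG00000019929.16, chromosome 10, 97479609 to 97518143) had 5298 CPM in cKO and 2643 CPM in WT at 10 days, and 4944 CPM in cKO and 3115 CPM in WT at 5 weeks. The groups did not overlap, and the gene differed little with time. Dcn had a log2 fold change of 0.84 (SE 0.402, adjusted p = 0.499 in edgeR), and it stayed between 0.72 and 0.96 when any library was left out.

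Lum (ENSMUSG00000036446.5, chromosome 10, 97565128 to 97572703) is a relative of Dcn and lies 46984 bases beyond it on the same strand. Its values were 561.9 CPM in cKO and 649.0 CPM in WT at 10 days, and 1268 CPM in cKO and 526.0 CPM in WT at 5 weeks. Only cKO at 5 weeks stood out, at 2.41-fold over WT, while at 10 days the cKO library was slightly lower. Lum had a log2 fold change of 0.53 (SE 0.440, adjusted p = 0.701 in edgeR), and of -0.0875 without cKO at 5 weeks.

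Mfap5, a microfibril-associated protein (ENSMUSG00000030116.14, chromosome 6, 122505845 to 122529290), had 131.7 CPM in cKO and 131.2 CPM in WT at 10 days, and 236.8 CPM in cKO and 124.1 CPM in WT at 5 weeks. It was level in 3 libraries and higher in cKO at 5 weeks. The 10-day groups differ by less than the choice of scaling does: with library totals in place of TMM the 10-day log2 ratio was -0.038, against 0.0053. The fitted log2 fold change was 0.47 (SE 0.287, adjusted p = 0.592 in edgeR), and 0.02 without cKO at 5 weeks.

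Gsn (ENSMUSG00000026879.14, chromosome 2, 35256380 to 35307892) made up the largest share of the summed level of the 10 genes in every library. It had 13620 CPM in cKO and 4235 CPM in WT at 10 days, and 10361 CPM in cKO and 9363 CPM in WT at 5 weeks. WT at 10 days stood low, and at 5 weeks the genotypes were within 1.11-fold of each other. Gsn had a log2 fold change of 0.92 (SE 0.592, adjusted p = 0.613 in edgeR), and 0.36 without WT at 10 days. Adipocyte markers (8 genes) summed to 910.9 CPM in cKO and 113.4 CPM in WT at 10 days, and to 284.3 CPM in cKO and 147.5 CPM in WT at 5 weeks. Of the 8, 6 were higher in both cKO than in both WT libraries, against 22.6% of all genes. Cfd, the adipocyte complement factor adipsin, had 341.0 CPM in cKO at 10 days and at most 2.12 CPM in the other libraries. The part of adipocyte RNA in the Gsn values was not tested. With cKO at 10 days left out, the Gsn log2 fold change was 0.60 (SE 0.623).

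**Figure D2:**
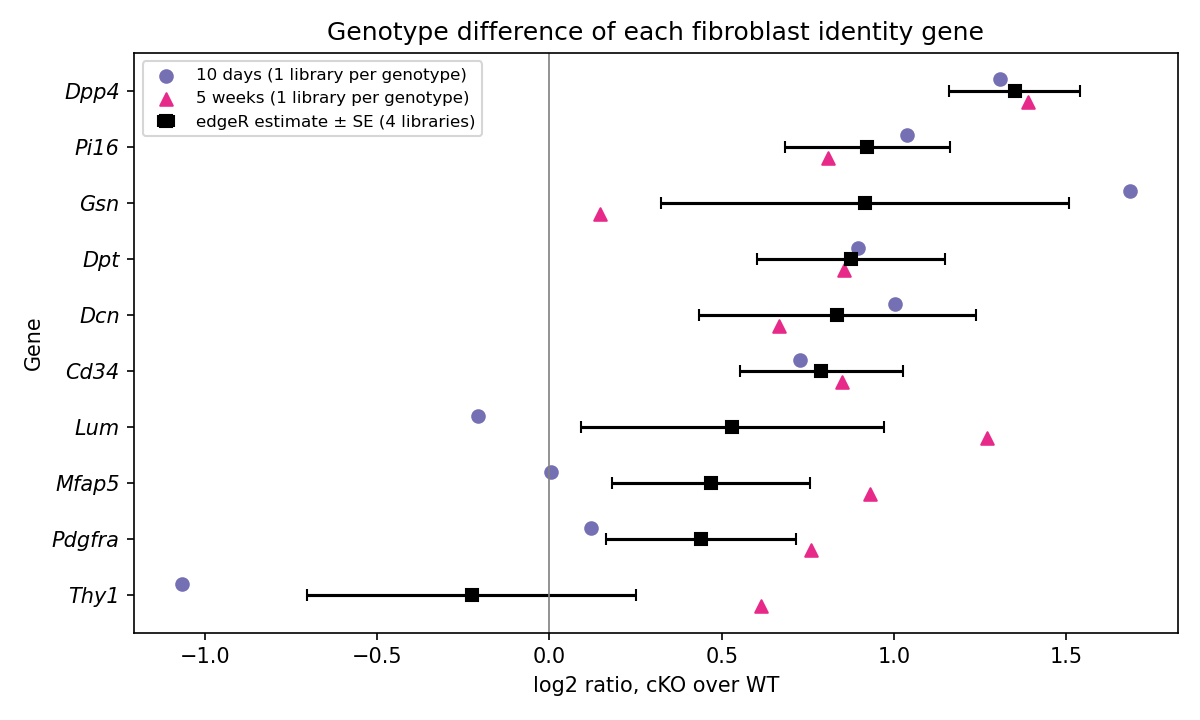
Log2 ratio of cKO over WT for each gene: squares with bars are the edgeR estimate ± SE over 4 libraries, circles the ratio at 10 days and triangles the ratio at 5 weeks, each from 1 library per genotype. Dpp4, Pi16, Dpt and Cd34 have both ratios close to the estimate, while Gsn, Lum and Thy1 have them far apart.

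At single time points, where each genotype has 1 library and no test is possible, 4 of the 10 genes (Gsn, Dcn, Pi16 and Dpp4) were at least 2-fold higher in cKO at 10 days, against 7.89% of all genes. At 5 weeks 2 were (Lum and Dpp4), against 7.78% of all genes. The median log2 ratio of the 10 genes was 0.81 at 10 days and 0.83 at 5 weeks, against 0.0012 and -0.011 over all genes tested. At 10 days the single ratios ran from -1.07 (Thy1) to 1.69 (Gsn), and at 5 weeks from 0.15 (Gsn) to 1.39 (Dpp4), so that at 5 weeks all 10 were above 0. The matching medians thus cover a wider spread among the genes at 10 days.

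The time comparison, 5 weeks against 10 days with genotype held constant, gave the smallest p-values for Dpp4, Pi16 and Cd34. None of the 10 had an adjusted p under 0.05 in edgeR, where 0.0634% of all genes did; DESeq2 called Pi16 and 1.04% of the 18550 genes with an adjusted p, and limma-voom called none of the 10 and 0.206% of all genes. EdgeR without a filter on low counts called Pi16 and Dpp4, and 1.91% of the genes it then tested. Pi16, Dpp4 and Cd34 had an unadjusted p under 0.05, each higher at 5 weeks, against 3.09% of all genes in that direction. Pi16 had a log2 fold change of 1.001 (SE 0.239, adjusted p = 0.549 in edgeR), Dpp4 of 0.97 (SE 0.189, adjusted p = 0.366) and Cd34 of 0.59 (SE 0.236, adjusted p = 0.931). The estimate of Dpt was close to that of Cd34, at 0.61 (SE 0.272, adjusted p = 0.959 in edgeR). Fits that left out a library also lacked the genotype term, so they mix genotype with time. Leaving out cKO at 5 weeks gave 0.50 for Pi16, 0.12 for Dpp4, 0.11 for Cd34 and 0.11 for Dpt. Leaving out cKO at 10 days gave 1.54 for Pi16, 1.75 for Dpp4, 0.98 for Cd34 and 1.09 for Dpt. Leaving out WT at 10 days gave 0.55, 0.48, 0.30 and 0.23 for Pi16, Dpp4, Cd34 and Dpt, and leaving out WT at 5 weeks gave 1.32, 1.52, 0.97 and 0.97. Pi16 was the only one of the 10 with both 5-week libraries above both 10-day libraries, which 13.3% of all genes showed. Ratios within a genotype do not mix genotype with time. The Pi16 log2 ratio of 5 weeks over 10 days was 0.89 in cKO and 1.12 in WT, and that of Dpp4 1.01 in cKO and 0.93 in WT. That of Cd34 was 0.65 in cKO and 0.53 in WT, and that of Dpt 0.59 in cKO and 0.63 in WT. Thy1 and Dcn had the time estimates nearest 0, at 0.06 (SE 0.478) and 0.07 (SE 0.399), and that of Pdgfra was -0.29 (SE 0.275). Lum, Thy1 and Mfap5 were higher at 5 weeks in cKO (log2 ratios of 1.17, 0.90 and 0.85) and lower in WT (-0.30, -0.78 and -0.08). Gsn did the opposite, with -0.39 in cKO and 1.14 in WT. The genotype and time comparisons use the same 4 libraries.

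Taking away the shared level shows how the genes moved against each other. The mean log2 CPM of the 10 genes, as a geometric mean, was 507.3 CPM in cKO and 346.4 CPM in WT at 10 days, and 747.8 CPM in cKO and 421.0 CPM in WT at 5 weeks. Relative to this mean, Cd34 kept its place most closely, varying by 0.27 on the log2 scale over the 4 libraries, followed by Dpt at 0.37 and Mfap5 at 0.55. Thy1 varied most, by 1.62, since its offset from the mean was -2.37 in cKO at 10 days and -0.75 in WT at 10 days. Dpp4 (1.21) and Gsn (1.13) came next. Dpp4 was nearest to the mean in cKO at 5 weeks (-2.24) and farthest from it in WT at 10 days (-3.45).

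The genes whose profile over the 4 libraries lay nearest to the mean profile of the 10 were, by Euclidean distance between centred log2 CPM among 4353 genes of at least 50 CPM, Antxr1 (0.016), Steap3 (0.056), Emilin2 (0.068), Rbpj (0.092) and Ugp2 (0.10). Antxr1, a collagen-binding receptor for anthrax toxin, had 350.2 CPM in cKO and 237.6 CPM in WT at 10 days, and 510.1 CPM in cKO and 286.4 CPM in WT at 5 weeks. Emilin2, an extracellular glycoprotein, also stands in the list of adventitial genes below. Of the 10 genes themselves Cd34 was closest to their mean profile (0.21) and Thy1 farthest (1.21). With 4 libraries such distances describe likeness only.

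Other genes of the adventitial population lay in the same direction. They were listed with earlier results of these data known, so they are not independent support. Of 18 listed, all 18 had a log2 fold change above 0 for genotype, against 49.4% of all genes, with a median of 0.66. An unadjusted p under 0.05 was found for 9, all higher in cKO, against 5.80% of all genes in that direction, while 0 had an adjusted p under 0.05 in edgeR. DESeq2 called 3 of them (Ly6c1, Smpd3 and Ugdh), all higher in cKO, against 2.87% of all genes in either direction. Fbn1, the microfibril protein fibrillin-1, had 561.7 CPM in cKO and 574.5 CPM in WT at 10 days, and 1116 CPM in cKO and 499.8 CPM in WT at 5 weeks. Ugdh, which makes the sugar precursor of hyaluronan, had 442.9 CPM in cKO and 263.0 CPM in WT at 10 days, and 753.2 CPM in cKO and 343.1 CPM in WT at 5 weeks (log2 fold change 0.94, unadjusted p = 0.0134). Ly6a, the surface antigen Sca-1, had a log2 fold change of 1.03 (SE 0.532), with 612.5 CPM in cKO and 157.4 CPM in WT at 10 days, and 429.9 CPM in cKO and 399.4 CPM in WT at 5 weeks, so that its difference lay mainly at 10 days. The list's median was 0.27 in the fit without cKO at 5 weeks and the time term. Its median log2 ratio at 10 days was 0.62.

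Among 20 other genes of fibroblasts in general, 18 had a log2 fold change above 0 (median 0.61), 9 had an unadjusted p under 0.05, all higher in cKO (5.80% of all genes), and 0 passed after adjustment in edgeR. DESeq2 called 4 (Clec3b, Cxcl12, Pcolce2 and Scara5), where it called 2.87% of all genes. Highest in CPM, not divided by length, were the matrix metalloproteinase gene Mmp2 (log2 fold change 0.58, SE 0.366), the endocytic receptor gene Lrp1 (0.47, SE 0.300) and the glycoprotein gene Fstl1 (0.56, SE 0.406). Of 13 mesenchymal transcription factor genes, 12 had a log2 fold change above 0 (median 0.71), 8 had an unadjusted p under 0.05, all higher in cKO (5.80% of all genes), and 0 passed after adjustment in edgeR. DESeq2 called 5 (Ebf1, Ebf2, Meox2, Prrx1 and Tbx15), again beside 2.87% of all genes. Prrx1, a homeobox factor of limb and connective tissue mesenchyme, had 113.4 CPM in cKO and 41.8 CPM in WT at 10 days, and 179.2 CPM in cKO and 71.7 CPM in WT at 5 weeks. Its edgeR estimate on the log2 scale was 1.38, with SE 0.194 and adjusted p = 0.137. Ebf1 (1.03, SE 0.192) and Osr2 (0.74, SE 0.214) had adjusted p = 0.217 and 0.329 in edgeR. Among 9 other small leucine-rich proteoglycans, the family of Dcn and Lum, 7 were above 0 (median 0.59, and 0.18 with cKO at 5 weeks left out). Ogn (osteoglycin) had a log2 fold change of 1.29 (SE 0.301), Prelp 0.59 (SE 0.320) and Bgn (biglycan) 0.26 (SE 0.298). After adjustment 0 of the 9 passed in edgeR, against 1 (Ogn) in DESeq2. In edgeR 3 had an unadjusted p under 0.05, all higher in cKO, against 5.80% of all genes in that direction.

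Collagen and contractile genes made by activated fibroblasts did not follow the identity genes at 10 days. The 11 interstitial collagen genes summed to 23563 CPM in cKO and 37971 CPM in WT at 10 days, and to 51384 CPM in cKO and 23299 CPM in WT at 5 weeks. Only 2 of the 11 had a log2 ratio above 0 at 10 days, and 10 of the 11 had one at 5 weeks; the list's medians were -0.40 and 0.88. Col3a1 had 7365 CPM in cKO and 13514 CPM in WT at 10 days, and 19638 CPM in cKO and 7054 CPM in WT at 5 weeks. Col1a1 and Col1a2 had 10-day log2 ratios of -0.79 and -0.70 and 5-week ratios of 1.12 and 1.05. The 7 myofibroblast genes had median log2 ratios of -1.76 at 10 days and 0.58 at 5 weeks. Postn, the matricellular protein periostin, had 1569 CPM in cKO and 5669 CPM in WT at 10 days, and 5184 CPM in cKO and 1702 CPM in WT at 5 weeks. Acta2 (smooth muscle actin) had 624.0 CPM in cKO and 1267 CPM in WT at 10 days, and 771.5 CPM in cKO and 690.3 CPM in WT at 5 weeks. Tagln (transgelin) had 208.3 CPM in cKO and 448.8 CPM in WT at 10 days, and 260.2 CPM in cKO and 262.3 CPM in WT at 5 weeks, where the genotypes were level. Acta2 and Tagln are also expressed by basal (myoepithelial) and mural cells, and the basal epithelial markers had a median log2 ratio of -1.53 at 10 days and -2.26 at 5 weeks; their part in these values was not tested. Over both time points the fitted medians were 0.19 for collagens and -0.41 for myofibroblast genes, with 0 genes past the adjusted threshold of edgeR in either list. At an unadjusted p under 0.05 in edgeR there was 1 collagen gene, Col12a1, lower in cKO, and 1 myofibroblast gene, Tnc, higher in cKO. Of all genes, 5.80% reached it in each direction. DESeq2 called Tnc alone. Of the 10 identity genes, Thy1 and Lum also had a 10-day ratio below 0 and a 5-week ratio above 0. The difference between the lists was not tested.

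**Figure D3:**
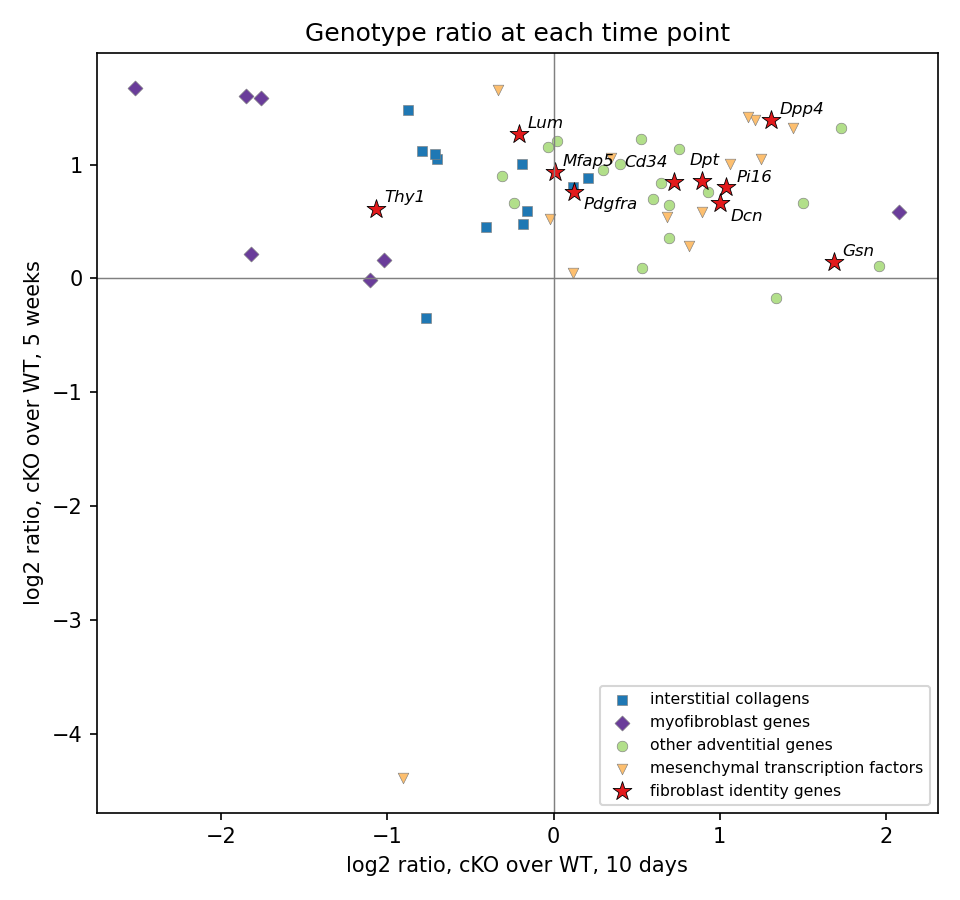
Log2 ratio of cKO over WT at 10 days (x axis) against that at 5 weeks (y axis), 1 point per gene and 1 library per genotype and time. Stars are the 10 identity genes, of which 8 lie right of 0; the collagens (squares) lie mostly left of 0 and above it, and the lone triangle near -4.4 on the y axis is Tcf21, at no more than 5.23 CPM in any library.

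In none of the remaining fibroblast lists did all genes share a direction in cKO. The medians of the parenchymal and the microfibril list changed sign between time points, and that of the platelet-derived growth factor axis did not. Of 12 parenchymal genes, 5 had a log2 ratio above 0 at 10 days (median -0.21) and 11 at 5 weeks (median 0.43). Of 12 microfibril and elastic genes, 3 did at 10 days (median -0.20) and 9 at 5 weeks (median 0.45). Among 5 genes of the platelet-derived growth factor axis, the same 2 did at each time (medians -0.29 and -0.43). The fitted median of these 5 genes was -0.52. Genes of the parenchymal Col15a1 type of fibroblast had a median log2 fold change of 0.12 (12 genes). Of these, 2 had an unadjusted p under 0.05 in edgeR, both higher in cKO, against 5.80% of all genes in that direction. The basement membrane genes Col4a1 (0.10, SE 0.430), Col4a2 (0.01, SE 0.439) and Hspg2 (0.20, SE 0.326) were the highest of the parenchymal list in CPM not divided by length. Microfibril and elastic fibre genes, the setting in which Mfap5 works, had a median of -0.03 (12 genes, 1 of them, Ltbp2, with an unadjusted p under 0.05, lower in cKO, against 5.80% of all genes in that direction; DESeq2 also called Ltbp2), with Ltbp3 at -0.14 (SE 0.264) and Eln, elastin, at -0.17 (SE 0.393). Among the 5 other genes of the platelet-derived growth factor axis, the receptor gene Pdgfrb had a log2 fold change of 0.45 (SE 0.225). The ligand genes Pdgfb (-1.27, SE 0.402) and Pdgfc (-1.05, SE 0.355) had unadjusted p = 0.0289 and 0.0337 with adjusted p = 0.386 and 0.392 in edgeR. Pdgfc, whose product binds Pdgfra, had 28.2 CPM in cKO and 89.6 CPM in WT at 10 days, and 22.0 CPM in cKO and 29.6 CPM in WT at 5 weeks, so WT at 10 days stood apart.

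**Figure D4:**
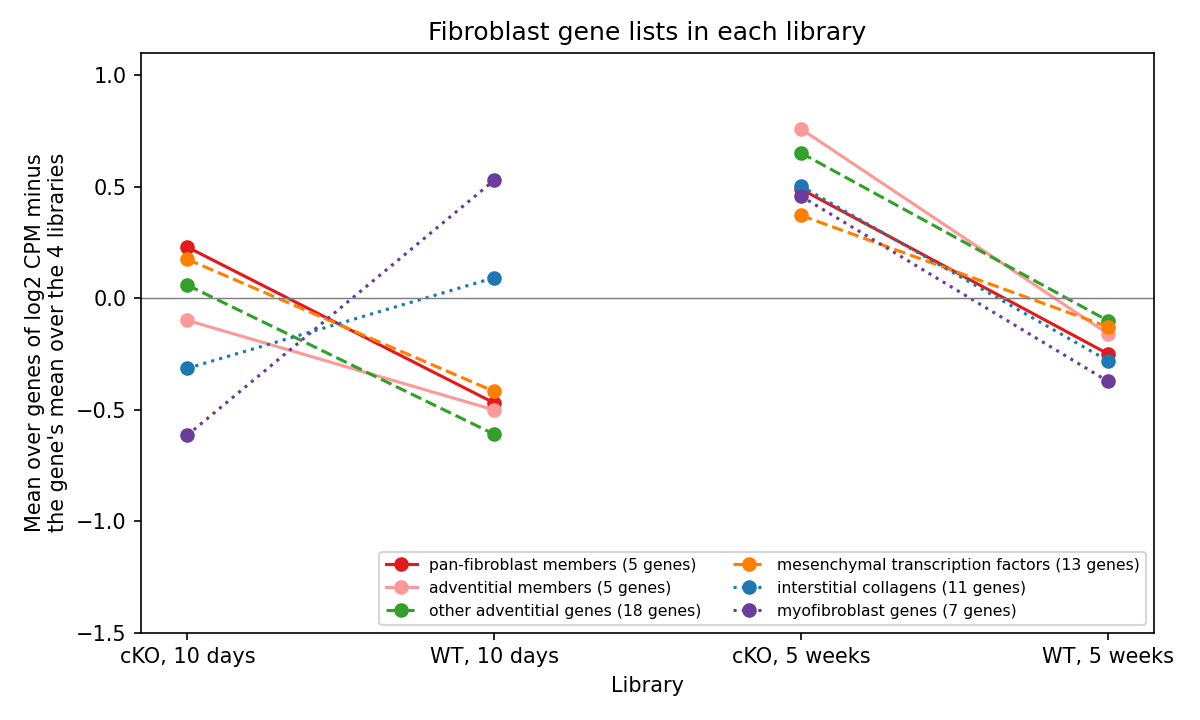
Mean over the genes of each list of log2 CPM minus the gene's own mean over the 4 libraries, by library; lines join the 2 genotypes of a time point, and no error is drawn because each point is 1 library. Identity, other adventitial and transcription factor genes are lowest in WT at 10 days, whereas collagens and myofibroblast genes are lowest in cKO at 10 days. For collagens WT at 5 weeks is almost as low (-0.28, against -0.31 in cKO at 10 days).

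Markers of other cells in the same libraries also differed, some by more than the identity genes (median 0.81). In edgeR the median log2 fold change was 1.18 for 12 leukocyte markers, with 11 above 0. An unadjusted p under 0.05 was reached by 7 of the 12, all higher in cKO, against 5.80% of all genes, and 0 passed after adjustment. For 8 adipocyte markers the median was 2.52, with all 8 above 0. An unadjusted p under 0.05 in edgeR was reached by 1 of the 8, higher in cKO, against 5.80% of all genes. The adipocyte difference lay mainly at 10 days: the median log2 ratio was 4.70 there and 0.50 at 5 weeks. At 5 weeks it was below the 0.83 of the identity genes. Medians were 0.51 for 9 endothelial and 0.02 for 9 luminal markers. Basal epithelial markers (8 genes with Krt5 and Krt14) summed to 1251 CPM in cKO and 4039 CPM in WT at 10 days, and to 1182 CPM in cKO and 16285 CPM in WT at 5 weeks. Pericyte and vascular smooth muscle markers (8 genes) summed to between 1010 and 1118 CPM in cKO and between 940.2 and 1068 CPM in WT. Their median log2 fold change was 0.55, with 6 of 8 above 0. In edgeR 3 (Kcnj8, Abcc9 and Des) had an unadjusted p under 0.05, all higher in cKO, against 5.80% of all genes. Of these 3, DESeq2 called Abcc9. Schwann cell markers summed to 110.5 and 104.5 CPM in cKO and 249.8 and 134.5 CPM in WT at 10 days and 5 weeks. Gene by gene this list was split: of its 6 markers 3 had a log2 fold change above 0 and 3 below it (median 0.02). In edgeR S100b and Cdh19 had an unadjusted p under 0.05, both higher in cKO, against 5.80% of all genes. After adjustment 0 of the 6 Schwann cell markers passed. The median log2 fold change was -1.13 over 4 tested mesothelial genes and 0.05 over 5 tested red cell genes. How far a changed mix of cells contributes to the differences of the identity genes was not tested.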

How the data were processed

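Gene-level RNA sequencing values of 4 mouse libraries were used. The authors deposited 1 table of estimated counts per gene, which holds these libraries alone. Salmon and GRCm38 appear in the submitters' processing notes without a role or version, and the annotation and strand setting are not given in the sources used here. The values are whole, so no rounding was needed. All 54393 identifiers matched GENCODE M21, and for 105 repeated symbols the entry with most counts was taken. Genes overlapping the 10 examined hold at most 12 counts per library.

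Counts were filtered (filterByExpr, minimum count 10), scaled by TMM and fitted with edgeR 4.0.16 in R 4.3.3 (quasi-likelihood, robust) with genotype and time terms, which leaves 1 residual degree of freedom. Benjamini-Hochberg adjustment covered all 18917 genes, with a threshold of 0.05. Each SE is |log2 fold change| over the root of the F statistic. Log2 ratios within a time point use a prior count of 2. Time serves as the pairing, since the labels carry no replicate numbers. The libraries of each genotype were not copies of each other: their counts differed by a chi-square of 103 per degree of freedom in cKO and 193 in WT. Alternatives were DESeq2 1.42.0, limma-voom (limma 3.58.1), other scalings, no filter, a missing term and leaving out each library. The fits without a library held genotype alone or time alone.

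The 10 genes and 9 fibroblast lists were chosen with earlier results of these data known. From each list the 3 genes with the highest mean CPM, not divided by length, are named. Of the genes named beyond that, Trp63 is the check of the genotype labels. Antxr1, Steap3, Emilin2, Rbpj and Ugp2 came from the ranking of likeness to the 10 genes. Krt5, Krt14, Krt8 and Krt18 are named as examples of their marker lists. The others (Tcf21, Cfd, Cd3e, Pecam1, Tek, Fbln1, Il33, Ltbp4 and genes named as called by DESeq2 or as passing an unadjusted p) were chosen after their values were seen.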

Additional observations from a re-analysis of the deposited data

Results flagged for a closer look

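Each result given here has a cKO to WT ratio of opposite sign at 10 days and at 5 weeks. With 1 library per genotype and time point the difference was not tested. Among the identity genes, the log2 ratio at 5 weeks exceeded that at 10 days by 1.48 for Lum and by 1.68 for Thy1. Among other named fibroblast genes the gap was 1.27 for Fstl1, 1.19 for Fbn1, 1.22 for Col4a1, 1.41 for Col4a2 and 0.74 for Hspg2. It was 2.35 for Col3a1, 1.91 for Col1a1, 1.75 for Col1a2, 1.30 for Eln, 3.46 for Postn and 1.18 for Acta2. For list medians it was 0.64 for the parenchymal Col15a1 list, 1.29 for interstitial collagens, 0.65 for microfibril and elastic genes and 2.34 for myofibroblast genes. In all 17 the 10-day ratio was below 0 and the 5-week ratio above it, and all rest on the same 4 libraries. Over all 105 tested genes of the fibroblast lists, 37 had signs in this order and 3 (Fbln1, Il33 and Ltbp4) in the opposite one. The share of all tested genes with such sign changes was not counted, so these counts do not show a trait of fibroblast genes. Fbln1 had log2 ratios of 0.96 (10 days) and -0.21 (5 weeks), Il33 of 1.34 and -0.17, and Ltbp4 of 0.35 and -0.52; these 3 were named after their values were seen.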

How the results depend on the processing

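For genotype, edgeR called 11 genes. It called 5 with DESeq2's size factors, 3 with upper-quartile factors, 1235 without a filter and 0 without the time term (no replicate block; 2182 genes at an unadjusted p under 0.05). DESeq2 called 512 and limma-voom 29, and leaving out a library gave 0 to 61. For time, edgeR called 12 genes, 638 without a filter and 1 without the genotype term. DESeq2 called 192 and limma-voom 39, and leaving out a library gave 0 to 19. The median genotype log2 fold change of the 10 genes was 0.84 with upper-quartile factors and spanned 0.39 (cKO at 5 weeks left out) to 1.02 (WT at 5 weeks left out). Directions changed only in the following cases. Every fit without a library also lacked the other term, so genotype and time are mixed in it. In these fits the genotype estimate ran from -0.75 to 0.23 for Thy1 and from -0.0875 to 1.09 for Lum. List medians ran from -0.27 to 0.29 for parenchymal, -0.33 to 0.63 for collagen, -0.21 to 0.28 for microfibril and -1.21 to 0.44 for myofibroblast genes. Time estimates ran from -0.68 to 0.093 for Pdgfra, -0.46 to 1.19 for Gsn, -0.39 to 0.58 for Dcn, -0.22 to 1.07 for Lum, -0.48 to 0.63 for Thy1 and -0.10 to 0.85 for Mfap5. The Thy1 time estimate was -0.0065 without the genotype term, and the Mfap5 10-day ratio was -0.038 with library totals. Beyond fewer libraries or terms, the causes were not tested. Adjusted p of Dpp4 for genotype ran from 7.35e-06 (no filter) to 0.908 (without cKO at 5 weeks). With 1 residual degree of freedom, an adjusted p that misses the threshold does not show that the genotypes are alike.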
